A study of Mus musculus with 13 samples.

Results

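The imprinted growth genes described here are H19, Igf2, Igf2r, Meg3, Dlk1, Peg3, Mest, Plagl1, Cdkn1c and Grb10. They were picked out by gene symbol, from a set drawn up with earlier results of these data known, and were 10 of the 24421 rows of the count table. All 10 had enough counts to be tested. Genomic imprinting silences the copy of a gene inherited from a given parent, so that the cell uses the other copy alone. In the mouse, Igf2, Dlk1, Peg3, Mest and Plagl1 are read from the paternal copy and as a rule favor fetal growth, whereas H19, Igf2r, Cdkn1c, Grb10 and Meg3 are read mainly from the maternal copy, and several of these restrain growth. Many of these genes are high in the fetus, are turned down after birth and lie in shared domains, such as H19 with Igf2 and Meg3 with Dlk1. The counts do not separate the parental copies, so what follows is the total level of each gene.

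RNA of individual spontaneous mammary tumors and of cancer-free mammary glands was sequenced from female MMTV-HER2/Neu mice of the FVB/N-TgN strain, line (MMTV-HER2/neu) 202Mul/J. All of these mice carry rat HER2/Neu cDNA that the long terminal repeat promoter of mouse mammary tumor virus drives in the mammary epithelium, although the genotype label reads wild type. Primary untreated tumors (n = 3) and glands (n = 2) came from mice without drug, and primary STV tumors (n = 3) from mice given 1 mg/mL stavudine (STV), a nucleoside inhibitor of reverse transcriptase, in the drinking water. The recurrent DMAG group (n = 3) held tumors that came back once 17-DMAG, an HSP90 chaperone inhibitor given at 20 mg/kg, had cleared the first growth, and the recurrent DMAG+STV group (n = 2) held such tumors from mice kept on stavudine. Per the methods of the study, 17-DMAG was still being given while the tumors of both recurrent groups grew back. Recurrence and ongoing 17-DMAG therefore cannot be told apart in any comparison of recurrent with primary tumors. In the paper, stavudine began either well before tumors appeared or only together with 17-DMAG. The titles do not say which schedule the recurrent DMAG+STV mice had. Comparisons of that group with primary STV tumors may therefore also hold differences in the timing and length of stavudine. The age of each mouse is not given in the sources used here. The design asks how tumors differ from the gland, how recurrent tumors differ from primary ones, and whether stavudine alters either kind of tumor.

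Several sequences help in reading the values. Meg3 and Dlk1 lie in a single domain and moved together between the tumors, Peg3 had the smallest p of the 10 genes when recurrent and primary tumors were compared over both water arms, and Plagl1 was the member called between tumors and glands. Their promoters, from 250 bases before to 50 bases after the start, are given 5′ to 3′ from RefSeq on GRCm38.p6. Capitals mark GGGGCCCC, a palindrome to which the Plagl1 protein can bind and which reads the same on both strands, and TATAAA, the letters of a TATA box, on either strand. The Meg3 capitals are TATAAA and its reverse complement TTTATA, which overlap.
Meg3, chr12:109540746-109541045, plus strand: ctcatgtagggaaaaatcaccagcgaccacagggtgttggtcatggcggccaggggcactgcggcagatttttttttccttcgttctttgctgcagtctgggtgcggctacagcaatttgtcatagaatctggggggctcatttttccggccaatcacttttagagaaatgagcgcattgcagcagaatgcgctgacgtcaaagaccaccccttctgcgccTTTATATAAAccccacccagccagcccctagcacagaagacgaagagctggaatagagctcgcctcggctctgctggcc
Dlk1, chr12:109452573-109452872, plus strand: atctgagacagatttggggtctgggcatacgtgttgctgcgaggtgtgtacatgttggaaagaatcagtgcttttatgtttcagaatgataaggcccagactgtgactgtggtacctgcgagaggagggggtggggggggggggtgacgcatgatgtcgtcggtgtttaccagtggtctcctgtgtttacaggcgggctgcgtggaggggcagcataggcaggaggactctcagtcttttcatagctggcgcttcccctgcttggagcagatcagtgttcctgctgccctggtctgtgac
Peg3, chr7:6730370-6730669, minus strand: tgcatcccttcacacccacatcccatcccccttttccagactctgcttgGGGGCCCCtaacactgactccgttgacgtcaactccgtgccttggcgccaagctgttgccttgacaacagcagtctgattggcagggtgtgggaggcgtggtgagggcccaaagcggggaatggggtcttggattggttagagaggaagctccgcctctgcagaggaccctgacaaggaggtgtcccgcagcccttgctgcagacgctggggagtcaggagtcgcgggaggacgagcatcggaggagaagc
Plagl1, chr10:13090582-13090881, plus strand: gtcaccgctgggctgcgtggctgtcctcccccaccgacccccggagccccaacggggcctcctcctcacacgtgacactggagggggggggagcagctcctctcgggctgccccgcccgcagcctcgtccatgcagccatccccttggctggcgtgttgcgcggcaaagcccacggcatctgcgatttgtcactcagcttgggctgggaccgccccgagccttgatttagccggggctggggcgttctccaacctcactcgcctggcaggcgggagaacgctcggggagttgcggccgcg

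The Peg3 window held GGGGCCCC once and the Meg3 window held the TATA letters, while the Dlk1 and Plagl1 windows held neither. Over all 32851 promoters of the same length, 1.08% held GGGGCCCC and 13.6% held TATAAA. The table had 15 promoters for 8 of the 10 genes, among them several starts for Igf2, Mest, Grb10 and Meg3, and no entry for H19 or Cdkn1c. The CpG dinucleotide, at which imprints are written as methylation, occurred a median of 13 times in the 15 promoters and 7 times in all promoters. These letter matches describe the windows and are not evidence of binding.

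H19 also carries a microRNA in an exon, and its sequence is shown because the table lists a row of its own for it. The mature strands are given with the seed, bases 2 to 8, in capitals, and lie at chr7:142577112-142577133 and chr7:142577078-142577099 on the minus strand of GRCm38.p6.
mmu-miR-675-5p: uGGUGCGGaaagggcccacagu
mmu-miR-675-3p: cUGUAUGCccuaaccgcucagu

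The Mir675 row was at 0 counts in all 13 libraries, also in the tumors with over 1000 H19 counts. A read that lies in both Mir675 and H19 may not be assigned to either, and mature microRNAs are shorter than the fragments sequenced, so these zeros do not describe the microRNA. Mir770, inside Meg3, was also at 0 throughout, Mir483, inside Igf2, had 1 count in mammary gland replicate 1, and Mir335, inside Mest, had between 0 and 8 counts.

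Library totals ran from 39921388 to 56887708 counts. Levels are given as CPM, the usual per-library scaling of counts to a common total, with TMM factors, which ran from 0.999 to 1.09 in the tumors and were 1.12 and 0.493 in mammary gland replicates 1 and 2. A floor of 3 counts equaled 0.0587 to 0.107 CPM and covers counting error only. Of all values of 1 to 9 counts, 74.8% were even numbers, compared with 49.6% of values of 1000 or more, which bears on Dlk1 and Igf2 in their low tumors.

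The libraries held different mixtures of tissue, which bulk RNA cannot separate: fewer cells of a type and less RNA per cell cannot be told apart. All tumors held epithelial RNA: Epcam was between 402 and 1236 CPM, where the glands had 655 and 493 CPM. The summed level of 9 luminal epithelium genes was 1435 to 2958 CPM in the tumors and 1753 and 1501 CPM in the glands. Recurrent DMAG+STV replicate 2 was the lowest tumor in both measures and lay below both glands. The summed level of 14 fibroblast genes was 7322 CPM in recurrent DMAG replicate 1 and between 451 and 2448 CPM in the other tumors. The summed level of 15 skeletal muscle genes ranged from 20.4 to 5696 CPM over the tumors. It was 4279 CPM in primary untreated replicate 1, 1526 CPM in recurrent DMAG replicate 3 and 5696 CPM in recurrent DMAG+STV replicate 2, and at most 495 CPM in the other 8. None of the 15 muscle genes was at 0 in those 3 tumors, while up to 7 of 15 were at 0 elsewhere. Milk protein genes summed to 28062 and 764799 CPM in mammary gland replicates 1 and 2. Before TMM scaling they made up 3.16% and 37.7% of the counts of these libraries. The same recurrent DMAG replicate 1 also had the lowest median Spearman correlation with the other tumors over all genes, 0.936, where the other 10 had 0.946 to 0.980. The spread, the relations between genes and the recurrence differences that moved most with it are therefore given without it as well.

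**Figure D1:**
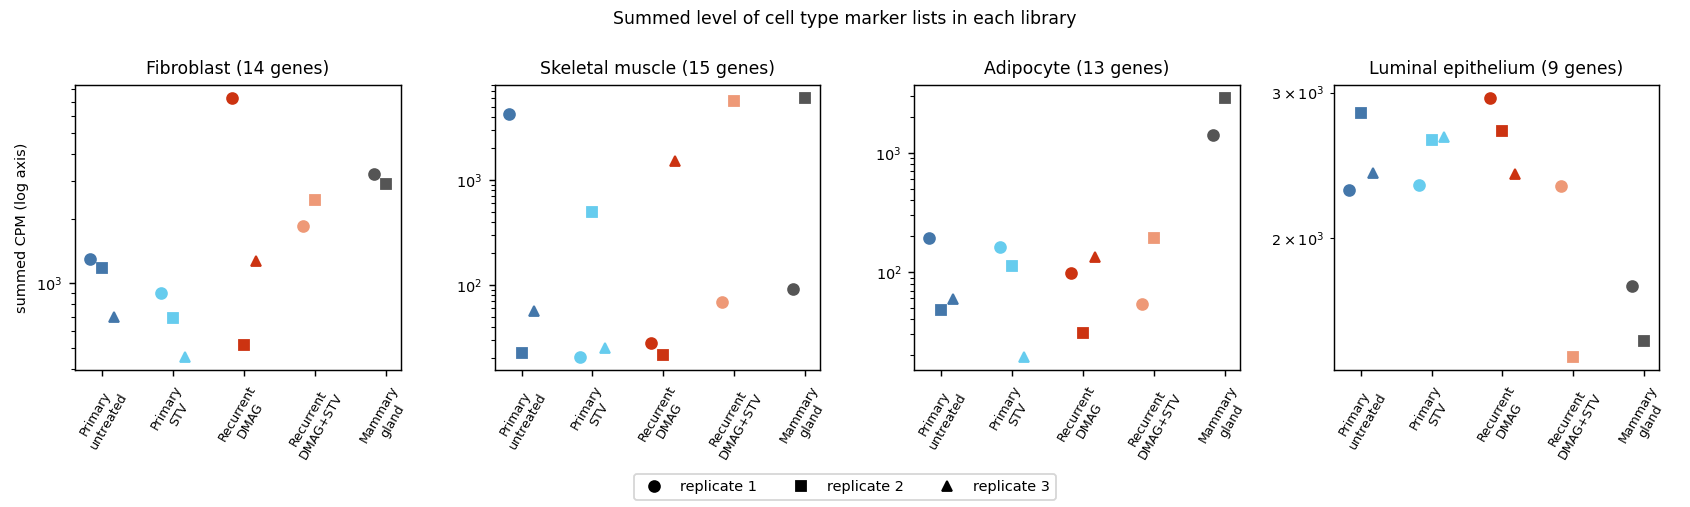
Summed CPM of the fibroblast, skeletal muscle, adipocyte and luminal epithelium marker lists (log axes that differ between panels) in each of the 13 libraries, by group, with symbols for replicate numbers. The fibroblast sum of recurrent DMAG replicate 1, 7322 CPM, stands above those of all other libraries, and the muscle sum of recurrent DMAG+STV replicate 2, 5696 CPM, is near that of mammary gland replicate 2, 6080 CPM.

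Compared per kilobase of exon, Igf2r was the most abundant of the 10 genes in the tumors. Its median over the 11 tumors was 58.5 CPM per kilobase, with a range of 41.3 to 63.1 that did not overlap that of Grb10, the next gene, at 15.1 (7.80 to 27.7). Cdkn1c followed with a median of 5.52, Plagl1 with 3.44, Peg3 with 1.78, H19 with 1.16, Mest with 0.840 and Meg3 with 0.535 CPM per kilobase. From Grb10 downward, the ranges of neighbors in this order overlapped. Igf2 at 0.0513 and Dlk1 at 0.0149 CPM per kilobase came last, and their ranges began at 0. The order depends on the lengths used, which join all GENCODE M21 exons of a gene, while the counts used the UCSC annotation. Before division by length, the Meg3 median was 9.68 CPM (18089 bases) and that of Mest 3.32 CPM (3945 bases).

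The 10 genes fell apart in how much they varied between tumors. The SD of log2 CPM over the 11 tumors was 2.25 for H19, 1.84 for Dlk1, 1.77 for Igf2, 1.59 for Cdkn1c, 1.33 for Meg3 and 1.27 for Peg3. These 6 genes lay at percentiles 92.9 to 99.2 of the 16870 genes tested, whose median SD was 0.366. Mest (0.51), Plagl1 (0.45), Grb10 (0.45) and Igf2r (0.17) lay at percentiles 63.1, 58.0, 57.8 and 16.9. The highest tumor exceeded the lowest by 205 times for H19, 29.5 times for Meg3, 26.2 times for Cdkn1c and 19.4 times for Peg3, but by only 1.53 times for Igf2r. The highest tumor was recurrent DMAG replicate 1 for 6 of the 10 genes, namely H19, Igf2, Meg3, Dlk1, Peg3 and Mest. Without it, the SD was 2.12 for H19, 1.26 for Dlk1, 0.94 for Meg3 and 1.01 for Peg3.

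**Figure D2:**
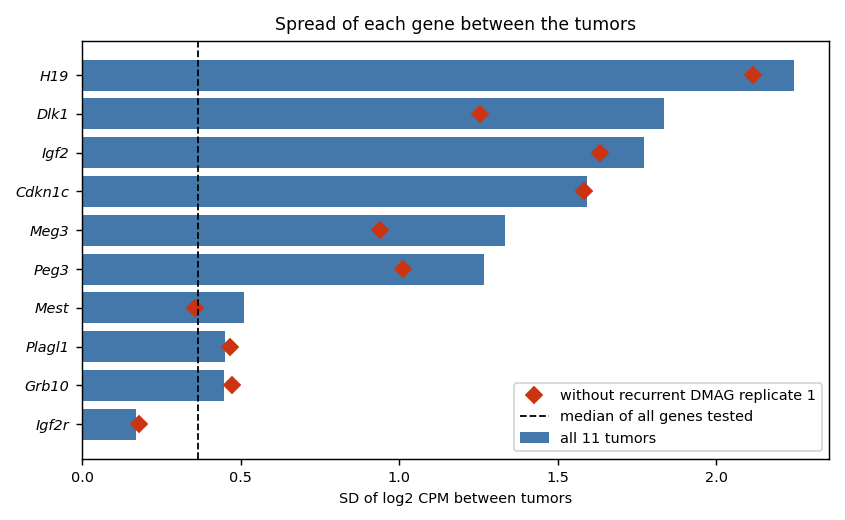
SD of log2 CPM over the 11 tumors for each gene (bars), the same without recurrent DMAG replicate 1 (diamonds) and the median SD of all genes tested, 0.366 (dashed line). H19 varies most, with an SD of 2.25, and Igf2r, with 0.17, is the member whose bar ends left of the line.

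**Figure D3:**
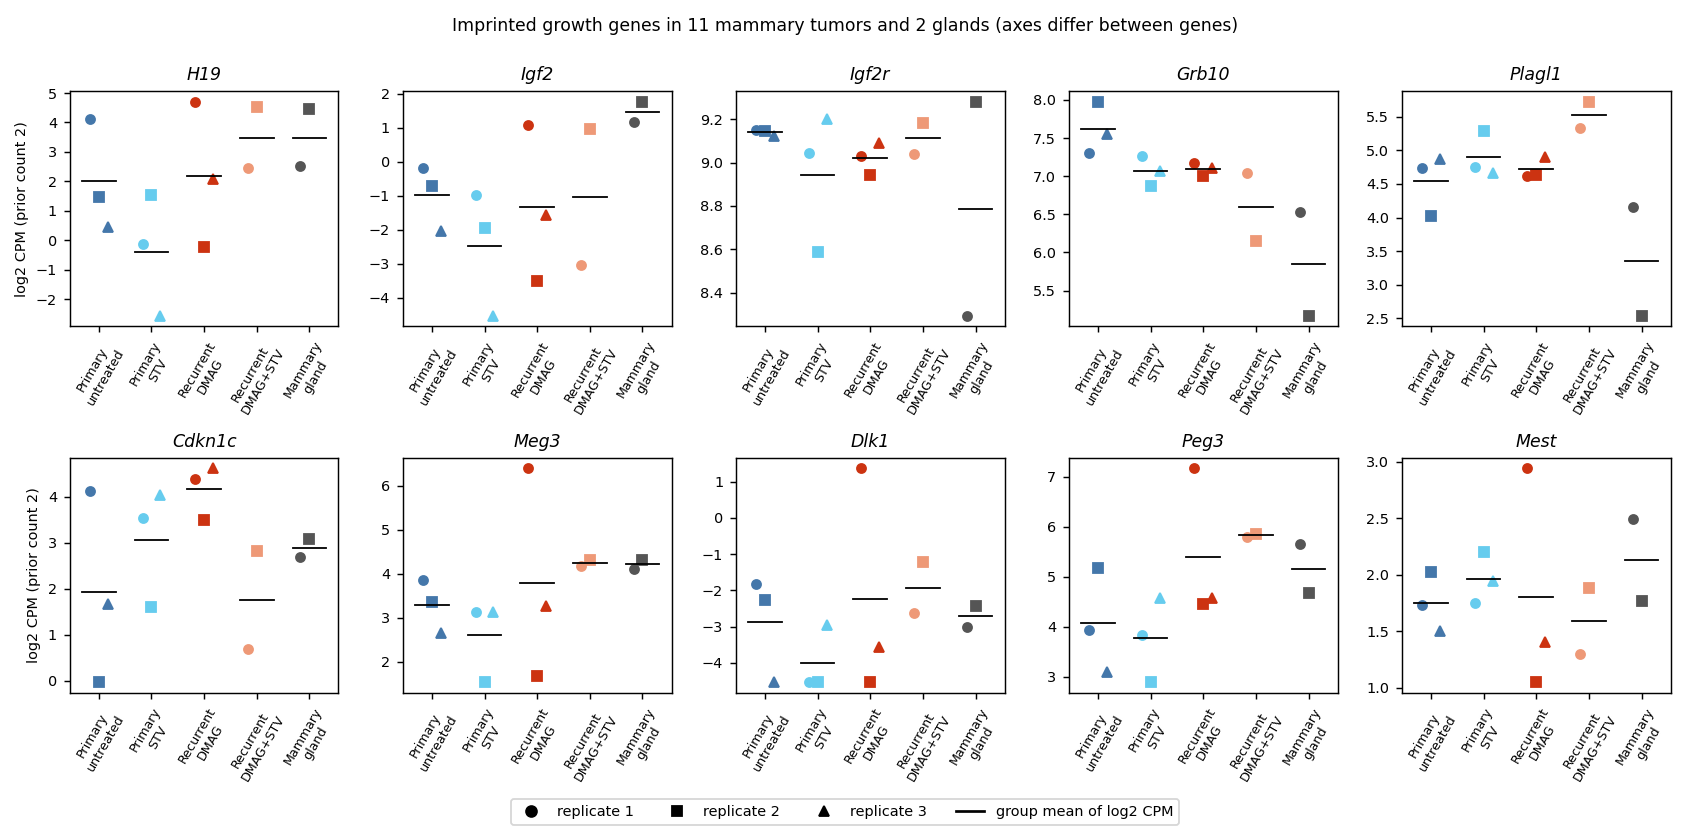
Log2 CPM (prior count 2) of the 10 genes in every library, with groups on the horizontal axis, symbols for replicate numbers and a line at each group mean; vertical axes differ between genes. Igf2r stays within 385 and 588 CPM in all 11 tumors, whereas H19 runs from 0.127 to 26.0 CPM.

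Igf2, the fetal growth ligand that acts through the IGF1 receptor, is at chr7:142650766-142666816 on the minus strand and had at most 93 counts in any tumor. It stood at 0.836, 0.571 and 0.201 CPM in primary untreated replicates 1, 2 and 3, and at 0.461, 0.218 and 0 CPM in primary STV replicates 1, 2 and 3. Recurrent DMAG replicates 1, 2 and 3 had 2.08, 0.0447 and 0.294 CPM, and recurrent DMAG+STV replicates 1 and 2 had 0.0782 and 1.90 CPM. Recurrent DMAG replicate 1, with 90 counts, and recurrent DMAG+STV replicate 2, with 93, stood above the other 9 tumors, which had 0 to 42. The glands had 2.22 and 3.35 CPM, both above every tumor.

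Igf2r, at chr17:12682406-12769664 on the minus strand, encodes the receptor that carries Igf2 to the lysosome for destruction, and it was the steadiest of the genes. The primary untreated tumors had 568, 567 and 557 CPM and the primary STV tumors 528, 385 and 588 CPM. The recurrent DMAG tumors had 523, 492 and 544 CPM, the recurrent DMAG+STV tumors 526 and 581 CPM, and the glands 314 and 622 CPM. The glands lay on both sides of the tumors, and primary STV replicate 2 was the lowest tumor. Airn, the paternal RNA that silences Igf2r, runs antisense to part of it at chr17:12741311-12860136 and was measured at 30.4 to 60.5 CPM in the tumors. Because the strand setting of the counting is not given in the sources used here, reads of the shared stretch cannot be told apart.

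Grb10, at chr11:11930508-12038683 on the minus strand, encodes an adaptor that binds the insulin and IGF1 receptors and dampens their signal. It was at 159, 252 and 188 CPM in the primary untreated tumors and at 154, 118 and 134 CPM in the primary STV tumors. The recurrent DMAG tumors had 144, 129 and 138 CPM, the recurrent DMAG+STV tumors 131 and 70.9 CPM, and the glands 92.3 and 36.0 CPM. The 3 primary untreated tumors were the highest of all 13 libraries. Recurrent DMAG+STV replicate 2, the tumor with the most muscle counts, lay below mammary gland replicate 1.

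H19, a long noncoding RNA at chr7:142575529-142578143 on the minus strand, next to Igf2 and under the same imprinting control region, had the widest range. It was at 17.4, 2.75 and 1.32 CPM in primary untreated replicates 1, 2 and 3, and at 0.875, 2.85 and 0.127 CPM in primary STV replicates 1, 2 and 3. Recurrent DMAG replicates 1, 2 and 3 had 26.0, 0.804 and 4.20 CPM, and recurrent DMAG+STV replicates 1 and 2 had 5.38 and 23.0 CPM. High and low tumors thus occurred side by side within the primary untreated and recurrent DMAG groups. The primary STV tumors also differed widely among themselves, from 0.127 to 2.85 CPM. Both recurrent DMAG+STV tumors were among the 4 highest tumors. The glands, at 5.64 and 22.0 CPM, lay inside the range of the tumors. Of the 3 highest tumors, recurrent DMAG replicate 1 had the highest sums of fibroblast, endothelium and pericyte, leukocyte, luminal epithelium, milk protein and proliferation genes. Primary untreated replicate 1 and recurrent DMAG+STV replicate 2 had the highest muscle sums. The part of any of these lists in the H19 level was not tested.

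H19 and Igf2 varied together over the 11 tumors, with Pearson's r of log2 CPM of 0.83 (permutation p = 0.00186, adjusted over 7 pairs of genes 0.00651) and Spearman's rho of 0.76 (permutation p = 0.00839, adjusted 0.0294). Leaving out primary STV replicate 3 and recurrent DMAG replicate 1, the tumors farthest from the median of H19, r was 0.66. With the group means subtracted, r was 0.86. Without recurrent DMAG replicate 1 alone, r was 0.79 (permutation p = 0.00675, adjusted 0.0236) and rho was 0.685 (permutation p = 0.0354, adjusted 0.114), so that the rank relation was no longer past the threshold. Without the 3 tumors with most muscle counts, r over the remaining 8 was 0.77 (permutation p = 0.0291, adjusted 0.102), and it was −0.018 when the 2 farthest of those were left out as well. In these 8 tumors the relation rested on primary STV replicate 3, the lowest, and recurrent DMAG replicate 1, the highest. The ratio of H19 to Igf2 counts was between 1.90 and 68.8 in the 9 tumors with more than 3 Igf2 counts, and 2.54 and 6.55 in the glands.

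Meg3, a long noncoding RNA at chr12:109541001-109571726 on the plus strand, is the maternal RNA of the domain that holds Dlk1. It was at 14.5, 10.2 and 6.22 CPM in the primary untreated tumors and at 8.75, 2.87 and 8.73 CPM in the primary STV tumors. The recurrent DMAG tumors had 84.6, 3.17 and 9.68 CPM, the recurrent DMAG+STV tumors 18.2 and 19.9 CPM, and the glands 17.3 and 20.0 CPM. Recurrent DMAG replicate 1 stood far above every other library, and both recurrent DMAG+STV tumors lay above all 6 primary tumors and level with the glands.

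Dlk1, at chr12:109452823-109463336 on the plus strand, encodes a transmembrane protein of the Notch ligand kind that restrains fat cell formation. Recurrent DMAG replicate 1 had 110 counts of it, or 2.55 CPM. The other 10 tumors had 0 to 19 counts, of which 4 were at 0, and the glands had 4 counts each. Recurrent DMAG+STV replicate 2, with 0.387 CPM, and primary untreated replicate 1, with 0.239 CPM, came next. A count of 0 allows a level of up to the floor, so that differences among the low tumors were not detectable at this depth.

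Dlk1 and Meg3 had the tightest relation of the 7 pairs. Pearson's r was 0.92 over the 11 tumors (permutation p = 6.0e-05, adjusted 0.00042) and Spearman's rho was 0.91 (permutation p = 0.00023, adjusted 0.00161). Leaving out recurrent DMAG replicate 1 and recurrent DMAG+STV replicate 2, the tumors farthest from the median of Dlk1, r was 0.77. It was 0.91 with group means subtracted and 0.82 without recurrent DMAG replicate 1 alone (permutation p = 0.00309, adjusted 0.0216). Other RNAs of the domain were also highest in that tumor. Rian, a further maternal noncoding RNA, was at 42.4 CPM there and between 1.09 and 10.4 CPM in the other tumors, and the glands had 7.27 and 7.82 CPM. Rtl1, a paternal gene of retrotransposon origin, had 138 counts there and 3 to 56 in the others, and Mirg, a microRNA host, had 77 and 0 to 39. The fibroblast sum was also highest in that tumor. So were the sums of endothelium and pericyte (742 CPM), leukocyte (468 CPM) and luminal epithelium genes (2958 CPM). The milk protein (23368 CPM) and proliferation sums (1118 CPM) were highest there as well. The part of any of these lists in these levels was not tested.

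**Figure D4:**
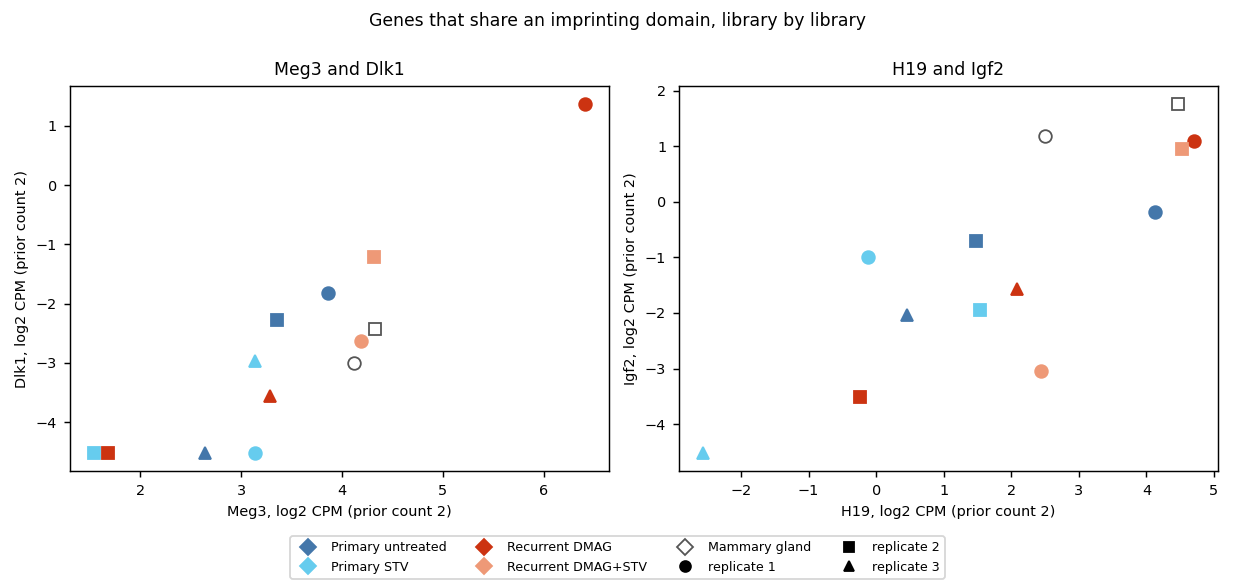
Log2 CPM (prior count 2) of Dlk1 against Meg3 (left) and of Igf2 against H19 (right) in every library, colored by group, with symbols for replicate numbers and open symbols for glands. Dlk1 and Meg3 are both highest in recurrent DMAG replicate 1 (r = 0.92 over the 11 tumors), and both glands lie above the tumors of like H19 level in the right panel (r = 0.83 over the tumors).

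None of the other 5 pairs fixed for testing was related past the threshold. Igf2 and Igf2r had r = 0.14 (permutation p = 0.687, adjusted 0.978). Plagl1, which can bind at genes of the imprinted network, had r = 0.33 with H19 (permutation p = 0.319, adjusted 0.743), and r = 0.093 with Igf2, −0.0092 with Cdkn1c and −0.034 with Dlk1 (each with an adjusted permutation p of 0.978). The Plagl1 and Cdkn1c value moved to −0.81 when the 2 tumors farthest from the median of Plagl1, primary untreated replicate 2 and recurrent DMAG+STV replicate 2, were left out.

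Peg3, a zinc finger factor at chr7:6703892-6730431 on the minus strand, is linked to growth and maternal behavior. It stood at 15.4, 36.2 and 8.50 CPM in the primary untreated tumors and at 14.3, 7.42 and 23.7 CPM in the primary STV tumors. The recurrent DMAG tumors had 144, 21.9 and 23.9 CPM, the recurrent DMAG+STV tumors 55.8 and 57.9 CPM, and the glands 50.6 and 25.3 CPM. The median was 14.8 CPM over the 6 primary tumors and 55.8 CPM over the 5 recurrent tumors. The lowest recurrent tumor exceeded 4 of the 6 primary tumors, and the ranges overlapped.

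Plagl1, a zinc finger factor that halts the cell cycle and acts on other imprinted genes, lies at chr10:13060504-13131694 on the plus strand. The primary untreated tumors had 26.7, 16.2 and 29.3 CPM and the primary STV tumors 26.9, 39.1 and 25.4 CPM. The recurrent DMAG tumors had 24.6, 24.8 and 29.7 CPM, the recurrent DMAG+STV tumors 40.1 and 52.7 CPM, and the glands 17.8 and 5.78 CPM. The recurrent DMAG+STV tumors were the highest of all libraries. A single tumor, primary untreated replicate 2, lay below mammary gland replicate 1.

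Cdkn1c, at chr7:143458339-143461050 on the minus strand, encodes p57, an inhibitor of cyclin-dependent kinases. It was at 17.3, 0.938 and 3.13 CPM in the primary untreated tumors and at 11.6, 3.003 and 16.4 CPM in the primary STV tumors. The recurrent DMAG tumors had 20.9, 11.3 and 24.6 CPM, the recurrent DMAG+STV tumors 1.56 and 7.05 CPM, and the glands 6.36 and 8.42 CPM. All 3 recurrent DMAG tumors were above the glands and both recurrent DMAG+STV tumors. The primary groups each mixed high and low tumors.

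Mest, at chr6:30723547-30748465 on the plus strand, encodes a protein of the hydrolase fold and was low throughout. It ranged from 2.79 to 4.02 CPM in the primary untreated tumors, from 3.32 to 4.57 CPM in the primary STV tumors and from 2.03 to 7.64 CPM in the recurrent DMAG tumors, and was 2.42 and 3.65 CPM in the recurrent DMAG+STV tumors. The glands, at 5.58 and 3.35 CPM, lay within the range of the tumors. Its 3′ end overlaps Copg2 on the other strand, so reads there cannot be told apart without the strand setting.

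Against the glands, Plagl1 was called higher in the tumors and no member was called lower. The mean over 11 tumors was 30.5 ± 9.93 CPM (SD), and the 2 glands averaged 11.8 CPM. The log2 difference of the tumor groups from the glands was 1.38 (SE 0.39, adjusted p = 0.0481 in edgeR's quasi-likelihood test over 17135 genes). Thus 1 of the 10 members was called, where 10.4% of all genes were. This call rested on mammary gland replicate 2, in which milk genes were highest. The difference was 0.88 without that gland (adjusted p = 0.265 in edgeR) and 2.45 without the other gland (adjusted p = 0.00254). Each of these fits had a single gland, which was assumed to vary like the tumors, so the values show the size of the shift rather than a replicated test. In all the call was lost in 16 of 22 alternatives, among them the library totals alone as scale, primary untreated tumors alone against glands, and removal of the 3 tumors with most muscle counts.

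Grb10 differed by 1.11 on the log2 scale (SE 0.34) and missed the threshold (adjusted p = 0.0623 in edgeR); DESeq2 (adjusted p = 0.0109) and limma voom (adjusted p = 0.0436) called it. The Grb10 difference was 0.68 without mammary gland replicate 2 and 1.98 without replicate 1, where edgeR called it (adjusted p = 0.00498), again with a single gland. Igf2 differed by −2.32 (SE 1.12, adjusted p = 0.198). It was the single member whose tumors and glands did not overlap, against 11.5% of all genes. The differences of the other 7 members lay between −1.19 for H19 (SE 1.17) and 0.65 for Dlk1 (SE 1.90), with adjusted p between 0.517 and 0.873. The median over the members, −0.02, was that of all genes. Removing mammary gland replicate 2 turned H19 from −1.19 to 0.19 and removing mammary gland replicate 1 turned Igf2r from 0.19 to −0.18, Mest from −0.32 to 0.13 and Peg3 from −0.23 to 0.39. The adipocyte sum was 1400 and 2907 CPM in the glands and at most 195 CPM in the tumors, and its part in these differences was not tested.

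Among the 4 tumor groups, edgeR's quasi-likelihood test called 0 of 16870 genes in every comparison, members included, so that percent called was 0% in each. DESeq2 called between 17 and 534 genes in the same comparisons, and Peg3 was the single member among them. Each tumor group enters more than 1 comparison (the primary untreated tumors, for example, are the controls of both stavudine and recurrence), so the values of different comparisons are not independent.

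For stavudine in primary tumors, Grb10 had the smallest p of the 10 genes. It was at 135 ± 18.1 CPM (SD, n = 3) with stavudine and 199 ± 47.4 CPM without, a log2 difference of −0.57 (SE 0.24, unadjusted p = 0.0371, adjusted p = 1.00 in edgeR). This was 1 of 10 members with an unadjusted p under 0.05, where 3.76% of all genes were, and 1 of 10 without overlap, where 10.8% were. Without primary untreated replicate 2 the difference was −0.35. H19 differed by −2.49 (SE 1.47), Dlk1 by −2.14 (SE 2.14), Igf2 by −1.25 (SE 1.54) and Meg3 by −0.61 (SE 0.97), each less than 2 SE from 0. Single tumors moved them: H19 was −0.68 without primary untreated replicate 1 and −3.85 without primary STV replicate 2, and Dlk1 was −5.71 without primary STV replicate 3, a value set by the prior count because the other 2 tumors of that group had 0 counts. Igf2 ran from −2.29 without primary STV replicate 1 to −0.67 without primary STV replicate 3, and Meg3 was −0.24 without primary STV replicate 2. The other 5 lay between −0.42 for Peg3 and 0.52 for Cdkn1c. The median of the 10 was −0.50 and that of all genes −0.03, and the median of the 14 fibroblast genes was −0.56. Other medians were −2.38 for muscle, −0.44 for milk protein, −0.39 for endothelium and pericyte and −0.15 for basal and myoepithelial genes. They were −0.03 for leukocyte, 0.08 for luminal epithelium, 0.11 for adipocyte and 0.16 for proliferation genes. The smallest SE, 0.15 for Igf2r, came with a difference of −0.19, which was −0.019 without primary STV replicate 2.

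Recurrent DMAG tumors were compared with primary untreated tumors. Grb10 was at 137 ± 7.61 CPM (SD, n = 3) in the recurrent tumors, against 199 ± 47.4 CPM, a log2 difference of −0.56 (SE 0.24, unadjusted p = 0.0403, adjusted p = 0.509 in edgeR). It was 1 of 10 members at that level, where 9.69% of all genes were. Grb10 and Igf2r, 2 of 10, did not overlap between the groups, where 15.1% of all genes did not. Igf2r differed by −0.13 (SE 0.15). Peg3 differed by 1.64 (SE 0.80), Meg3 by 1.65 (SE 0.98), Dlk1 by 2.65 (SE 1.84) and Cdkn1c by 1.40 (SE 1.00). With recurrent DMAG replicate 1 left out, Peg3 remained at 0.20, but Meg3 turned to −0.67, Dlk1 to −2.50, H19 from 0.52 to −1.52, Igf2 from 0.58 to −1.63 and Mest from 0.27 to −0.53. The direction of these 5 genes rested on that tumor. Cdkn1c was 0.88 without primary untreated replicate 2 and 3.20 without primary untreated replicate 1. The 14 fibroblast genes had a median of 1.23 in this comparison, and all 14 were above 0. All 10 basal and myoepithelial genes (median 1.20), all 9 leukocyte genes tested (0.52) and all 12 proliferation genes (0.49) were above 0 too. Other medians were 0.43 for luminal epithelium, 0.27 for endothelium and pericyte, −0.05 for milk protein, −0.27 for adipocyte and −1.08 for muscle genes. No gene of these lists was called, and their part in these differences was not tested.

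Under stavudine, recurrent DMAG+STV tumors were compared with primary STV tumors. H19 differed by 3.47 on the log2 scale (SE 1.59, unadjusted p = 0.0564, adjusted p = 0.501 in edgeR), Peg3 1.92 (SE 0.87, adjusted p = 0.500) and Plagl1 0.61 (SE 0.27, adjusted p = 0.497). Meg3 differed by 1.49 (SE 1.06), Dlk1 by 3.03 (SE 2.24), Igf2 by 2.12 (SE 1.67) and Cdkn1c by −1.25 (SE 1.15). Of the 10 genes, 5 did not overlap between the groups, namely H19, Plagl1, Meg3, Dlk1 and Peg3, with 35.3% of all genes doing the same in this comparison of 2 with 3 tumors. None had an unadjusted p under 0.05, where 10.1% of all genes did. Without recurrent DMAG+STV replicate 2, Igf2 turned to −1.50, H19 was 2.07, Dlk1 was 1.93, Plagl1 was 0.39 and Cdkn1c was −2.73. Without primary STV replicate 3, Dlk1 was 6.59, a value that depends on the prior count because the other 2 primary STV tumors had 0 counts. The median of the 10 genes was 1.05, that of all genes 0.01, and that of the 14 fibroblast and 15 muscle genes 1.34 and 3.83. Other medians were 1.41 for milk protein, 1.02 for basal and myoepithelial, 0.50 for endothelium and pericyte and 0.48 for leukocyte genes. They were 0.45 for adipocyte, −0.09 for luminal epithelium and −1.06 for proliferation genes.

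Averaged over both water arms, Peg3 differed between recurrent and primary tumors by 1.78 on the log2 scale (SE 0.59, unadjusted p = 0.0141, adjusted p = 0.313 in edgeR), a difference that DESeq2 called (adjusted p = 0.0491). The value was 1.05 without recurrent DMAG replicate 1. Grb10 differed by −0.49 (SE 0.18, unadjusted p = 0.0218, adjusted p = 0.325). These were 2 of 10 members at an unadjusted p under 0.05, where 13.6% of all genes were. None of the 10 separated all recurrent from all primary tumors, which 1.34% of genes did. H19 differed by 1.99 (SE 1.05), Dlk1 by 2.84 (SE 1.45) and Meg3 by 1.57 (SE 0.72), with adjusted p in edgeR of 0.423, 0.408 and 0.376, and without recurrent DMAG replicate 1 these were 0.97, 0.26 and 0.40. Igf2r (0.01, SE 0.11) and Mest (−0.04, SE 0.35) were near 0. The fibroblast list had a median of 1.44, and 7 of its 14 genes had an unadjusted p under 0.05, none of them called. Medians were 1.35 for muscle, 1.25 for milk protein, 0.85 for basal and myoepithelial and 0.59 for leukocyte genes. They were 0.39 for endothelium and pericyte, 0.24 for luminal epithelium, 0.09 for adipocyte and −0.27 for proliferation genes. The part of any of these lists in the Peg3 difference was not tested.

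Stavudine in recurrent tumors was read from recurrent DMAG+STV against recurrent DMAG tumors. Plagl1 was at a mean of 46.4 CPM (n = 2) in the former and 26.3 ± 2.87 CPM (SD, n = 3) in the latter, a log2 difference of 0.82 (SE 0.27, unadjusted p = 0.0135, adjusted p = 0.482 in edgeR). It was 1 of 10 members at that level, where 7.84% of all genes were. Plagl1 and Cdkn1c, 2 of 10, did not overlap, where 21.5% of all genes did not. Cdkn1c averaged 4.31 CPM against 18.9 ± 6.87 CPM (SD, n = 3), a difference of −2.13 (SE 1.19, adjusted p = 0.739). Without recurrent DMAG+STV replicate 2, the tumor with most muscle counts, the Plagl1 difference was 0.60 and that of Cdkn1c −3.60, and without replicate 1 Cdkn1c differed by −1.43. All 12 proliferation genes lay below 0 in this comparison, with a median of −1.34, 9 with an unadjusted p under 0.05 and none called, and the 15 muscle genes had a median of 2.48. The part of either list in the Plagl1 and Cdkn1c values was not tested.

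The interaction of recurrence with stavudine asks whether the recurrence difference changes with the drug. It was not called for any member. Cdkn1c had the smallest p, with −2.65 (SE 1.53, unadjusted p = 0.116, adjusted p = 0.711 in edgeR): the log2 recurrence difference was 1.40 without stavudine and −1.25 under it. H19 followed with 2.95 (SE 2.08, adjusted p = 0.758). Without primary untreated replicate 1 the values were −4.46 and 1.14. None of the 10 reached an unadjusted p under 0.05, where 7.84% of all genes did. In the test of any difference among the 4 tumor groups, Grb10 (unadjusted p = 0.0230, adjusted p = 0.534 in edgeR) and Plagl1 (unadjusted p = 0.0281, adjusted p = 0.542) were 2 of 10 under 0.05, where 8.54% of all genes were.

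**Figure D5:**
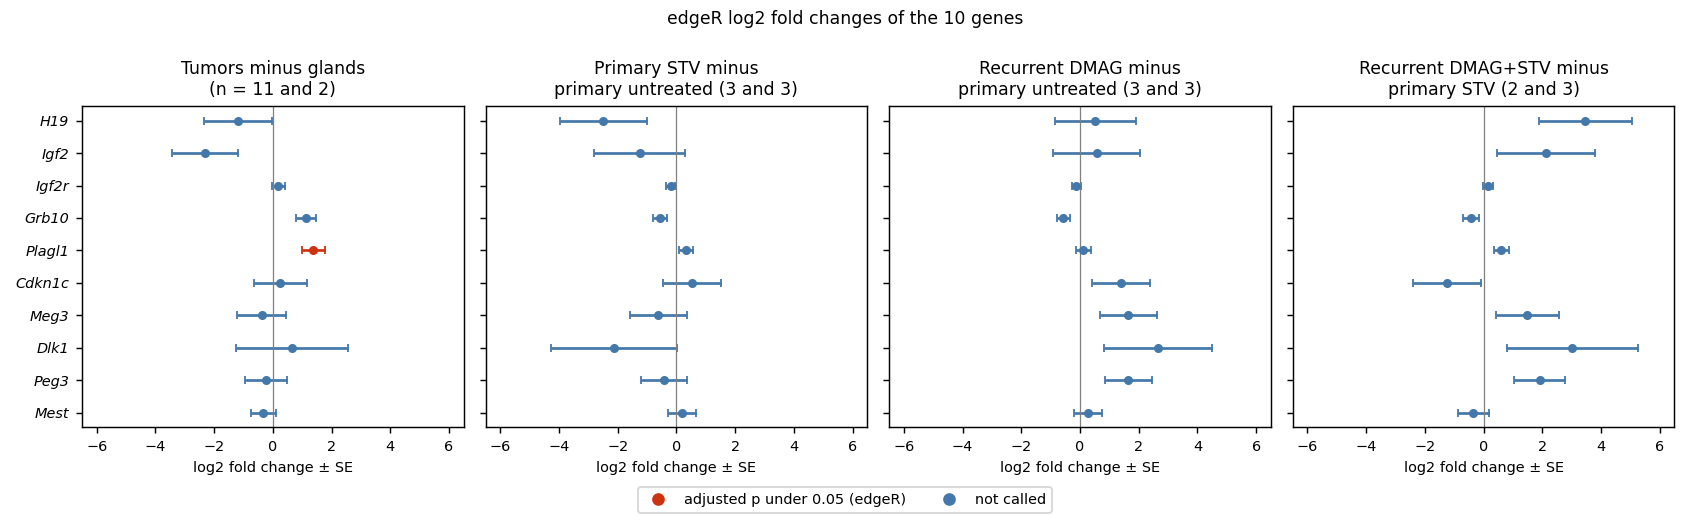
Log2 fold changes from edgeR with their SE (bars) for the 10 genes in 4 comparisons, with the vertical line at no change. Plagl1 in tumors against glands (1.38, red) is the single point called, and the widest bars belong to Dlk1, H19 and Igf2.

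Of 20 tested IGF pathway genes, from a list of 22, 1 rose and 2 fell between glands and tumors, where 10.4% of all genes were called, so the share was near the background. Igfbp3, which binds IGFs in the blood and tissue, rose by 2.10 (SE 0.56, adjusted p = 0.0400 in edgeR), from 21.2 and 11.9 CPM in the glands to between 33.5 and 132 CPM in the tumors. Igf1, the ligand mainly made after birth, fell by 2.71 (SE 0.61, adjusted p = 0.0213) and was at 62.7 and 157 CPM in the glands. Recurrent DMAG replicate 1, with 78.1 CPM, lay within the glands, and the other 10 tumors were between 4.60 and 24.9 CPM. Igf2bp2, an RNA-binding protein that can bind Igf2 transcripts, fell by 5.18 (SE 0.88, adjusted p = 0.00677), although mammary gland replicate 1, at 1.45 CPM, was close to the highest tumor, at 1.11 CPM, and replicate 2 was at 16.4 CPM.

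Between tumor groups no gene of this list was called. Igfbp5, an abundant IGF-binding protein of the breast, had the smallest p in recurrence under stavudine, with 1.06 (SE 0.27, unadjusted p = 0.00308, adjusted p = 0.313 in edgeR). It was at 17270 and 17672 CPM in the recurrent DMAG+STV tumors and at 7715, 8191 and 9350 CPM in the primary STV tumors. The groups did not overlap, as was so for 9 of the 20 tested genes of this list and for 35.3% of all genes. Igfbp2 differed by 4.36 (SE 1.41, adjusted p = 0.401), with 10.5 and 67.6 CPM against 2.90, 2.52 and 0.295 CPM. Igf1r, the receptor that Igf2 signals through, was at 65.6 and 25.4 CPM in the recurrent DMAG+STV tumors and at 90.2, 140 and 83.9 CPM in the recurrent DMAG tumors, a difference of −1.20 (SE 0.41, unadjusted p = 0.0164, adjusted p = 0.505).

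Of 51 tested genes of a list of 64 other imprinted genes, 2 rose and 4 fell in tumors against glands, again beside 10.4% of all genes. Airn, the RNA that opposes Igf2r, rose by 0.85 (adjusted p = 0.0301 in edgeR), from 24.3 and 20.7 CPM in the glands. Slc22a3, a gene of the same domain, fell by 3.76 (adjusted p = 0.0241 in edgeR), from 8.14 and 3.96 CPM to at most 1.18 CPM. Cd81, a membrane tetraspanin in the domain of Cdkn1c, rose by 0.56 (adjusted p = 0.0298), and Tspan32, another tetraspanin gene there, was among those that fell. Ppp1r9a, a neuronal scaffold, fell by 3.46 (adjusted p = 0.0117) and Nnat, a small membrane proteolipid, fell by 1.02 (adjusted p = 0.0183). Ppp1r9a was at 38.4 and 26.1 CPM in the glands and at 20.1 CPM in recurrent DMAG replicate 1, and at most 3.32 CPM in the other tumors. For Slc22a3 and for Airn, the tumors and glands did not overlap, as was so for 11.5% of all genes. A link between these 2 genes was not tested.

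In the tumor comparisons none of these 51 genes was called. Inpp5f, a phosphatase with an imprinted isoform, had the smallest p in recurrence without stavudine, with −0.62 (SE 0.18, unadjusted p = 0.00552, adjusted p = 0.509 in edgeR). Kcnq1ot1, the paternal RNA that silences the domain of Cdkn1c, had it in recurrence under stavudine, with −0.59 (SE 0.17, unadjusted p = 0.00556, adjusted p = 0.336). Kcnq1ot1 was at 857 and 708 CPM in the recurrent DMAG+STV tumors and between 1137 and 1238 CPM in the primary STV tumors. It overlaps Kcnq1 on the other strand, so its reads carry the same limit as those of Airn.

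Among 12 tested genes that write or keep imprints, of a list of 14, Uhrf1 rose in tumors against glands, by 0.86 (SE 0.23, adjusted p = 0.0412 in edgeR). This was 1 of 12, where 10.4% of all genes were called, so the share was near the background. Uhrf1 brings the maintenance methylase to newly copied DNA and was at 45.0 to 119 CPM in the tumors and 45.2 and 35.6 CPM in the glands. The other 11 were not called, and none of the 12 was called between tumor groups. In recurrent tumors with stavudine against those without, Uhrf1 differed by −0.81 (SE 0.26, unadjusted p = 0.0115, adjusted p = 0.473), and Mki67, a proliferation marker, was at 198 and 83.8 CPM against 523, 510 and 503 CPM in the same libraries. None of 6 other inhibitors of cyclin-dependent kinases was called in any comparison. Cdkn1a, which encodes p21, differed by 3.09 in recurrence under stavudine (SE 1.10, unadjusted p = 0.0192, adjusted p = 0.441), where Cdkn1c differed by −1.25.

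The genes most like each member over the 11 tumors were taken by the highest Pearson's r of log2 CPM among 12684 expressed genes, as a description. Meg3 was most like Rian (r = 0.975), its neighbor, then Emp3 (0.975) and S1pr1 (0.969), and Dlk1 was most like Dlc1 (0.971), Adamts4 (0.964) and S1pr1 (0.958). Peg3 was most like Kctd11 (0.971), Plekhh2 (0.970) and Dab2 (0.964). These values and those that follow all include recurrent DMAG replicate 1 and were not computed without it. That tumor was the highest for Meg3, Dlk1 and Peg3, and also for H19, Igf2 and Mest. H19 was most like Fndc1 (0.952) and the matrix genes Col14a1 (0.941) and Loxl1 (0.941). Igf2 was most like Cd300lg (0.938), Prex2 (0.926) and Tusc5 (0.921). For the steadier genes the leaders were Lmf1 (0.946), Mgat4a (0.929) and Dab2ip (0.928) for Grb10, Hdhd3 (0.938), Ndufaf6 (0.911) and Pusl1 (0.901) for Plagl1, Ctu2 (0.901), Unc5c (0.891) and Pdap1 (0.881) for Igf2r, and Emg1 (0.895), St8sia4 (0.895) and Wasl (0.876) for Mest. Cdkn1c was most like Rcc2 (0.958), Cep85 (0.948) and Clic4 (0.936).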

How the data were processed

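RNA of 11 mammary tumors and 2 mammary glands was compared, 1 library each. The deposited values were raw counts of reads per gene, not normalized. Per the methods and labels, the authors depleted ribosomal RNA, prepared dUTP libraries, used bcl2fastq 2.20, aligned reads to GRCm38 (mm10) with STAR and counted them with featureCounts (Subread 1.6.2) on the UCSC annotation. The strand setting and the treatment of multimapping reads are not given in the sources used here.

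The members and all gene lists were chosen with earlier results of these data known. Every member was named, together with at most 4 called genes per list by smallest p, the 2 with the smallest p where none was called, genes that share a domain with a member, and the 3 genes most like each member. Counts were filtered with filterByExpr, scaled by TMM and tested with edgeR 4.0.16 (quasi-likelihood, robust) in R 4.3.3. Tumors were compared with glands over 13 libraries and 17135 genes, and the tumor groups over 11 libraries and 16870 genes. P-values were adjusted over all genes tested (Benjamini-Hochberg), and genes were called at an adjusted p under 0.05. The scripts were tested on simulated data. Log2 CPM used a prior count of 2, whereas the edgeR fold changes used the default prior count of that package. The SE of an edgeR fold change was its absolute size divided by the square root of the F statistic. Correlations of 7 pairs used two-sided permutation tests with 100000 resamples. Positions and exon lengths came from GENCODE M21 on GRCm38. Nothing in the labels or headers named a batch. The labels speak of individual tumors; where nothing further shows separate animals, p-values measure the spread between these samples. Alternatives were other scalings, no filter, DESeq2 1.42.0, limma 3.58.1 voom, a replicate block, and sets of libraries left out; leaving out recurrent DMAG replicate 1 from the correlations and spread was chosen after seeing the data.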

Additional observations from a re-analysis of the deposited data

How the results depend on the processing

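Over 70 values, 1 for each member and signed comparison, and 1360 recomputed values, 1260 kept their direction and their side of the threshold, 80 turned direction, 16 lost a call and 4 gained one. With 2 or 3 libraries a group and members that differ widely between tumors, the tests resolve large changes in steady genes best, and the lowest counts of Dlk1 and Igf2 limit their folds, which depend on the prior count. Where a value turned, the cause was not tested beyond the library or step named.

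In tumors against glands, the number of members called was 0 with library totals only, with scaling without milk, muscle and adipocyte genes, with the replicate block, without the 3 tumors with most muscle counts and with primary untreated tumors only, and 2 (Plagl1 and Grb10) in DESeq2. The number of genes called was 489 with library totals only, 3242 in DESeq2, 371 with the replicate block, 285 without the 3 muscle tumors and 361 with primary untreated tumors only. With library totals only the median log2 difference of all genes was 0.37, and Meg3 stood at 0.052. Leaving out 1 library at a time, 0 to 2 members and 535 to 4255 genes were called. The 535 came without mammary gland replicate 2 and the 4255 without mammary gland replicate 1, each with a single gland assumed to vary like the tumors. Cdkn1c turned to −0.13 in limma voom, −0.047 with the replicate block, −0.60 without the 3 muscle tumors and −0.052 with primary untreated tumors only, and Dlk1 to −0.52 in limma voom. Leaving out single libraries gave ranges of −0.20 to 0.55 for Cdkn1c, −0.64 to 1.15 for Dlk1, −1.83 to 0.19 for H19, −0.18 to 0.85 for Igf2r, −0.56 to 0.13 for Mest and −0.60 to 0.39 for Peg3.

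In the tumor comparisons, where edgeR called 0 genes, DESeq2 called 17 for stavudine in primary tumors, 61 and 331 for recurrence without and under stavudine, 266 for stavudine in recurrent tumors, 410 for recurrence averaged over both arms (1 member, Peg3), 189 for the interaction and 534 for any difference. Without the 3 muscle tumors edgeR called 1 gene in recurrence without stavudine. Leaving out single libraries, it called 0 to 1 gene there, 0 to 100 in recurrence under stavudine, 0 to 141 for stavudine in recurrent tumors, 0 to 6 averaged over both arms, 0 to 77 for the interaction and 0 to 37 for any difference. The highest of these counts, other than that of recurrence without stavudine, came without recurrent DMAG+STV replicate 1, where that arm held a single tumor assumed to vary like the other groups.

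Limma voom turned Igf2 in recurrence without stavudine (−0.56), Meg3 (0.51), Dlk1 (1.02) and Peg3 (0.45) for stavudine in recurrent tumors, and Meg3 in the interaction (1.21). Without the 3 muscle tumors the values were −1.50 for Igf2 in recurrence under stavudine, −1.32 for H19 and −3.73 for Igf2 with stavudine in recurrent tumors, −0.0095 for Igf2 and −0.030 for Igf2r averaged over both arms, and −0.67 for H19, −2.99 for Igf2, −2.02 for Dlk1 and −0.038 for Peg3 in the interaction.

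Leaving out single libraries, recurrence without stavudine ranged from −2.50 to 3.35 for Dlk1, −1.52 to 2.33 for H19, −1.63 to 1.16 for Igf2, −0.67 to 2.21 for Meg3, −0.53 to 0.63 for Mest and −0.092 to 0.28 for Plagl1. Recurrence under stavudine ranged from −1.50 to 3.16 for Igf2 and −0.019 to 0.28 for Igf2r. Averaged over both arms it ranged from −0.66 to 0.98 for Cdkn1c, −0.45 to 1.88 for Igf2, −0.070 to 0.072 for Igf2r and −0.45 to 0.13 for Mest. Stavudine in primary tumors ranged from −0.90 to 0.35 for Peg3. Stavudine in recurrent tumors ranged from −2.86 to 3.40 for Dlk1, −0.95 to 2.50 for H19, −3.33 to 2.51 for Igf2, −1.32 to 1.56 for Meg3, −0.77 to 0.39 for Mest and −0.57 to 1.31 for Peg3. The interaction ranged from −0.74 to 5.52 for Dlk1, −0.41 to 0.48 for Grb10, −2.10 to 3.74 for Igf2, −0.73 to 2.15 for Meg3, −0.99 to 0.17 for Mest and −0.51 to 1.70 for Peg3. Of the correlations, H19 with Igf2 was 0.77 and no longer past the threshold without the 3 muscle tumors, and −0.018 when the 2 farthest of the remaining 8 were left out too. Igf2 with Igf2r turned to −0.030 with group means subtracted and −0.070 without the 3 muscle tumors, where Plagl1 with Igf2 turned to −0.30. Plagl1 with Cdkn1c turned to 0.31 with group means subtracted. Without recurrent DMAG replicate 1, Plagl1 with Cdkn1c was 0.054 and Plagl1 with Dlk1 was 0.16.

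The groups share replicate numbers, and the sample titles do not say whether these numbers pair the samples. The deviations of same-numbered tumors from their group means correlated between −0.30 and 0.22 over 15 pairs, with 2 above 0.1. Of 11 tumors, 2 correlated best with their own number. These values cannot decide whether samples were paired, because deviations within groups this small depend on each other. In the recurrent DMAG+STV group they are exact opposites. With the replicate block, H19 turned to −0.065 for stavudine in recurrent tumors and Meg3 to 0.65 in the interaction, and 0 genes were called in every tumor comparison.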

Other observations

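Several imprinted and IGF genes outside the 10 members were also highest in recurrent DMAG replicate 1. Recurrent DMAG replicate 1 had 1832 counts of Rian, against 49 to 508 in the other tumors, and 20.1 CPM of Ppp1r9a, against 0.591 to 3.32 CPM. In the same tumor Igf1 was at 78.1 CPM, Igfbp4, an IGF-binding protein, at 136 CPM and Csn2, the milk protein beta-casein, at 5570 CPM. The other 10 tumors had 9.57 to 71.0 CPM of Igfbp4 and 17.0 to 2184 CPM of Csn2. The Erbb2 row, to which reads of the rat transgene may also count, was lowest there, at 3698 CPM, where the other 10 tumors had 7712 to 19075 CPM and the glands 11209 and 12896 CPM.

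Cdkn2a, which encodes the inhibitors p16 and p19Arf, was at 14.0 CPM in recurrent DMAG+STV replicate 2 and 6.22 CPM in primary STV replicate 2, and between 0.0921 and 2.06 CPM in the other 9 tumors. No comparison of the groups called it in edgeR's quasi-likelihood test (adjusted p = 0.195 in tumors against glands, where the log2 difference was 3.72, SE 1.80).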
